A study of Mus musculus with 13 samples.

Results

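Hox genes are the homeobox transcription factors that give cells a position along the body axis, and they lie in 4 clusters, Hoxa to Hoxd. All genes on the array whose RefSeq symbol is Hoxa, Hoxb, Hoxc or Hoxd followed by a number were taken, which gave 39 of the 19752 named genes: 11 in the Hoxa cluster, 10 in Hoxb, 9 in Hoxc and 9 in Hoxd. The symbol chose them, and no measured value did. They were read by 43 probes. A gene with several probes, such as Hoxa9, Hoxa13 or Hoxb3, was read by 1 of them: the probe with the highest mean signal.

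The arrays held adipose tissue of male C57BL/6J mice, either brown (BAT) or white (WAT). Fv2E-PERK mice carry a transgene, labelled mAP::Fv2E-PERK, in which the kinase domain of the stress kinase PERK is fused to a domain that the ligand AP20187 brings together. The groups were Fv2E-PERK BAT 12 h after AP20187 at 100 ng/g (2 arrays) or vehicle (2 arrays), Fv2E-PERK WAT after the same AP20187 dose (3 arrays) or vehicle (2 arrays), and WAT of untreated wild-type mice (3 arrays). A further array stayed out of all groups, because its labels name both tissues. AP20187 and vehicle were injected into the peritoneum. The treatment label speaks of muscles as the tissue taken, whereas every sample is labelled as fat. The labels name neither the white depot nor the ages, do not say what mAP stands for, and do not say whether an array is 1 mouse or a pool, and p-values cover only the variation among these arrays. No wild-type group received AP20187, and there is no wild-type BAT.

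In vertebrate embryos the genes of a Hox cluster are switched on in the order in which they lie, so that low numbers mark anterior and high numbers mark posterior tissue. Genes with the same number in different clusters are paralogues, copies of 1 ancestral gene. Adult tissues keep part of this pattern, and fat depots of different body regions are known to differ in it. Hox proteins bind DNA together with cofactors of the TALE class, such as Pbx and Meis proteins. Polycomb proteins keep clusters silent, trithorax proteins keep them active, and retinoic acid switches on low-numbered members in the embryo.

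The clusters also carry microRNA genes, and their order in the RefSeq records places each one beside the genes described here. Mir196a-2 lies between Hoxc10 and Hoxc9, and Mir196b between Hoxa9 and Hoxa10. Mir10a lies beside Hoxb4 in the Hoxb cluster, and Mir10b beside Hoxd4 in the Hoxd cluster. The mature forms are shown because miR-196 is a known repressor of Hox mRNAs, among them Hoxb8 in mouse embryos. Their own levels were not analysed here. The sequences are those of RefSeq (GRCm38.p6), and capitals mark the seed, bases 2 to 8, which the members of each pair share.
mmu-miR-196a-5p (Mir196a-2, chr15:102973365-102973386, plus strand): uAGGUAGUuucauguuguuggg
mmu-miR-196b-5p (Mir196b, chr6:52230129-52230150, minus strand): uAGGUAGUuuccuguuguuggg
mmu-miR-10a-5p (Mir10a, chr11:96317186-96317208, plus strand): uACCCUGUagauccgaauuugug
mmu-miR-10b-5p (Mir10b, chr2:74726074-74726096, plus strand): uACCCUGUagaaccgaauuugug

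A level is a log2 signal from which the array's 75th percentile was taken, so each step of 1 is a doubling. Levels of different probes cannot be set against each other, and every comparison below is of 1 gene between arrays. The tissue labels matched their markers. Ucp1, the uncoupling protein of brown fat, was at 9.87 to 10.6 on the BAT arrays and at -7.23 to -3.41 on the WAT arrays. Leptin (Lep) was at -0.43 to 1.68 in BAT and at 3.21 to 5.19 in WAT, and Adipoq, an adipocyte hormone, was at 8.25 to 9.46 on all 12 arrays. Eif2ak3, the gene of PERK, averaged 1.17 ± 0.01 in BAT with AP20187 and 0.92 ± 0.02 in BAT with vehicle (SD, n = 2 each), and whether its probe reads the transgene was not tested.

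Several arrays carried transcripts of other tissues. The 9 epididymis markers with a usable spot on every array, of 11 measured, averaged 7.96 on WAT AP20187 array 1 and -0.12 on array 2, against -5.83 to -4.44 on the other 6 WAT arrays. The 10 transcripts of seminal vesicle and prostate, a list chosen after the data were seen, averaged 3.05 on WAT wild-type array 3 and -1.41 on WAT vehicle array 1, against -5.99 to -4.80 on the other WAT arrays. The 7 liver transcripts, a list outside the first set of markers, averaged 2.90 on WAT vehicle array 2, against -2.51 to 0.05 on the other WAT arrays. Markers of mesothelium, the lining of the abdominal cavity, averaged -5.24 to -4.43 in BAT and 1.75 to 2.42 in WAT. Skeletal muscle markers averaged 0.83 to 5.04 in BAT and -3.70 to -0.89 in WAT. All BAT arrays lay on 1 slide and all WAT arrays on 2 others, so tissue and slide cannot be told apart. Of all spots, 46.4 to 49.0% in BAT and 49.0 to 64.0% in WAT were well above background, which limits what can be said of dim genes in BAT.

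Both depots carried a broad Hox signature of low and middle paralogue numbers. Of the 39 genes, 19 and 20 were well above background on the BAT arrays with AP20187, and 21 and 23 with vehicle. In WAT the counts were 23, 22 and 27 with AP20187, 27 and 29 with vehicle, and 27, 28 and 34 in wild type. On WAT AP20187 array 1 only 37 members, and on array 2 only 38, had a usable spot. A set of 16 genes was detected on every array with a usable spot, among them Hoxa4, Hoxa5, Hoxa7, Hoxa9, Hoxb2 to Hoxb7, Hoxc4, Hoxc5, Hoxc6, Hoxd4 and Hoxd8. Hoxc8 and Hoxc9 were detected on every WAT array and on no BAT array, and 0 genes had the opposite pattern. The higher detection floor in BAT bears on this count: the lowest signal well above background was at -3.70 to -3.43 in BAT and at -5.16 to -3.84 in WAT.

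The 12 members with numbers 10 to 13, which pattern the hindmost trunk, limbs and genital tract, were not a stable part of either depot. None of them was detected on every array of either tissue. Of these, 6 were detected on a single array: Hoxa11, Hoxb13, Hoxd12 and Hoxd13 on WAT wild-type array 3, Hoxc11 on WAT vehicle array 2, and Hoxc13 on BAT vehicle array 3. Of the 27 members with numbers 1 to 9, Hoxb1 was detected only on WAT AP20187 array 1, and Hoxd1 on none of the 12 arrays. A gene not well above background may still be expressed below what the array can read.

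**Figure D1:**
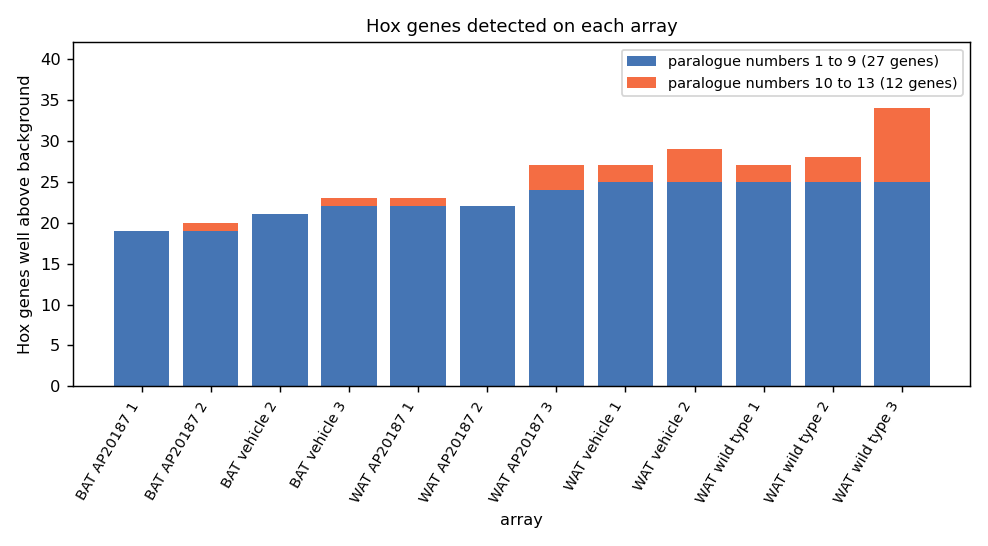
Number of Hox genes well above background (y axis, count) on each of the 12 arrays (x axis), split into paralogue numbers 1 to 9 (blue, 27 genes) and 10 to 13 (orange, 12 genes). The count of the blue part is 19 to 22 in BAT and 22 to 25 in WAT, and WAT wild-type array 3 has 9 genes of the orange part.

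**Figure D2:**
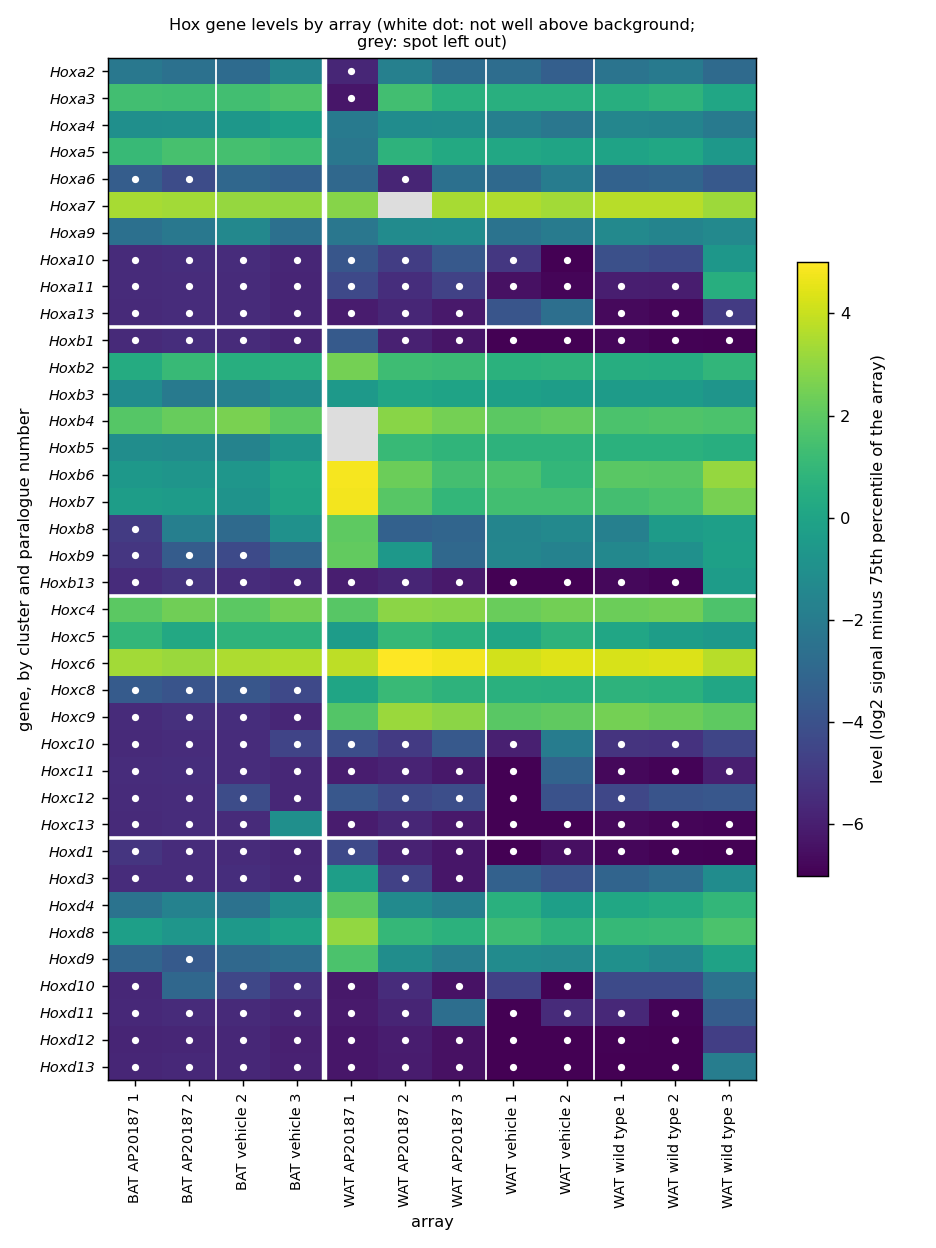
Levels of 38 of the Hox genes (rows, by cluster and paralogue number) on the 12 arrays (columns, BAT left of WAT), in log2 units relative to the array's 75th percentile (colour). White dots mark spots not well above background and grey marks spots left out, and colours compare along a row only, as in Hoxc8 and Hoxc9, dark in all 4 BAT and bright in all 8 WAT columns.

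Between the depots, the clearest difference lay in the middle of the Hoxc cluster. Hoxc9, which is known to mark the thoracic region of the embryo, was at -5.54 and -5.33 in BAT with AP20187 and at -5.45 and -5.70 in BAT with vehicle, never well above background. In WAT it was at 1.81, 3.22 and 2.91 with AP20187, 1.94 and 2.07 with vehicle, and 2.47, 2.31 and 2.02 in wild type. Hoxc9 was therefore high on every WAT array and at background on every BAT array, with no overlap. It was at least 70.6-fold lower in BAT than in WAT after AP20187 (log2 difference -8.08, SE 0.37, adjusted p = 1.13e-05) and at least 47.4-fold lower with vehicle (-7.58, SE 0.40, adjusted p = 4.11e-05). These bounds compare WAT with the detection floor of the dim BAT arrays. Hoxc9 and Hoxc8 entered the test through WAT groups only, so the filter favoured a lower level in BAT. With no filter on dim probes both were still called in both comparisons.

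Its neighbour Hoxc8 had the same pattern. Hoxc8 was at -3.53 and -3.90 in BAT with AP20187 and at -3.80 and -4.33 with vehicle, again never well above background. In WAT it was at 0.05, 1.12 and 0.77 with AP20187, 0.60 and 0.58 with vehicle, and 0.77, 0.67 and 0.10 in wild type. All WAT arrays were above all BAT arrays. By group means Hoxc8 was at least 17.6-fold lower in BAT after AP20187 (-4.36, SE 0.34, adjusted p = 7.86e-05) and at least 17.8-fold lower with vehicle (-4.66, SE 0.37, adjusted p = 0.000186). Hoxc6, the next gene along, was well above background on all 12 arrays, at 3.33 and 3.19 in BAT with AP20187 and 3.52 and 3.61 with vehicle, against 3.80, 5.16 and 4.80 in WAT with AP20187, 4.19 and 4.39 with vehicle and 4.26, 4.38 and 3.72 in wild type. The depots did not overlap, but the gap was small: 2.50-fold lower in BAT after AP20187 (SE 0.37 log2, adjusted p = 0.027), and -0.73 with vehicle (SE 0.41, adjusted p = 0.23), which did not pass.

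Hoxc5 and Hoxc4, which follow in the direction of lower numbers, overlapped between the depots. Hoxc5 was at 0.23 to 0.93 in BAT and -0.51 to 1.04 in WAT, and Hoxc4 at 1.97 to 2.43 in BAT and 1.67 to 2.93 in WAT. Along the cluster, BAT with vehicle was lower than WAT with vehicle by at least 47.4-fold for Hoxc9 and at least 17.8-fold for Hoxc8, both at background in BAT. The measured log2 difference was -0.73 for Hoxc6, 0.39 for Hoxc5 and -0.15 for Hoxc4. On the other side of Hoxc9, beyond Mir196a-2, Hoxc10 was well above background on 3 WAT arrays and no BAT array. On these arrays Hoxc6 was thus the last gene detected in both depots and Hoxc8 the next, detected in WAT only.

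**Figure D3:**
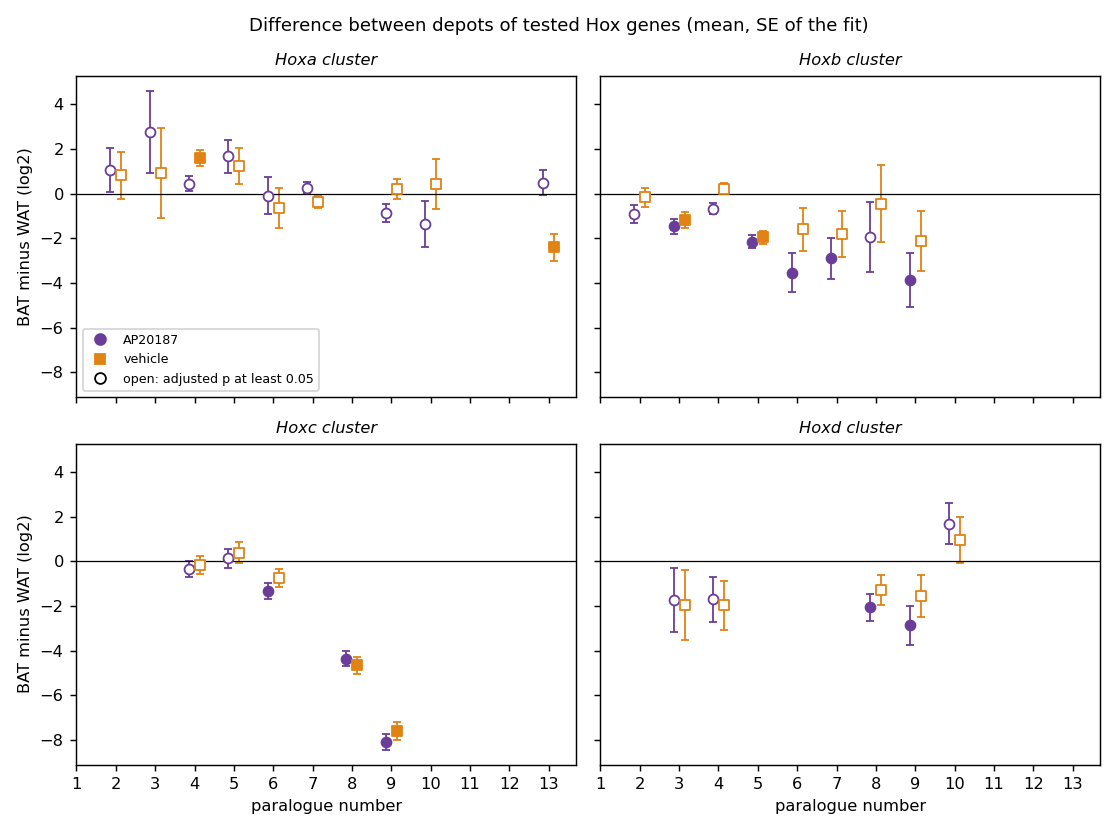
Difference of BAT minus WAT (y axis, log2) for 27 of the Hox genes that entered the test, by paralogue number (x axis) in each cluster, after AP20187 (circles) and with vehicle (squares). Bars are the SE of the fit and filled symbols have an adjusted p under 0.05: Hoxc9 is at -8.08 and -7.58, with BAT at background, and the Hoxa cluster lies between -2.40 and 2.78, where the highest, Hoxa3 after AP20187, is 0.36 without WAT AP20187 array 1.

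Over the whole family, 28 of the 39 genes were detected throughout 1 or more groups and entered the test, and 11 did not (Hoxa11, Hoxb1, Hoxb13, Hoxc10 to Hoxc13, Hoxd1 and Hoxd11 to Hoxd13). Of the 28, 7 entered through WAT groups only (Hoxa10, Hoxa13, Hoxb9, Hoxc8, Hoxc9, Hoxd3 and Hoxd10) and 0 through BAT groups only, so the filter leans toward members lower in BAT. After AP20187, 10 of the 28 were lower in BAT than in WAT and 0 higher, where 29.9% of all 24459 features passed in either direction and 16.9% were lower. With vehicle, 5 were lower and 1 was higher, where 23.4% of all features passed and 9.17% were lower. Of those 5, Hoxa13 was detected throughout WAT with vehicle and in no other group, so the filter built in that it was lower elsewhere and nothing is read from its call. With vehicle the share of Hox members called, 21.4%, lay near the background, and after AP20187 it was 35.7%. Hoxb3, Hoxb5, Hoxc8 and Hoxc9 were lower in both comparisons, which share no arrays but share 1 estimate of the spread. The Hoxb3 call was lost in 10 of 23 alternative fits with vehicle and in 2 of 23 after AP20187, and those of the other 3 genes in none that gave a value. The median difference of the 28 members was -1.12 after AP20187 and -0.54 with vehicle, against -0.05 and 0.11 over all features.

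The differences were also described by paralogue number and by cluster, without a test between these parts. Of the 12 tested members with numbers 6 to 9, 11 had a negative difference after AP20187 and 8 of those passed the test, and 11 were negative with vehicle, where 2 passed. Those 2 were Hoxc8 and Hoxc9, which entered the test through WAT groups only, as did Hoxb9. The filter favoured a lower level in BAT for these 3 genes, and for Hoxd3 among the lower numbers. Of the 13 tested members with numbers 1 to 5, 8 were negative after AP20187 and 6 with vehicle, and 2 passed as lower each time. Of all features, 16.9% passed as lower after AP20187 and 9.17% with vehicle. The median difference was -2.46 for numbers 6 to 9 and -0.33 for numbers 1 to 5 after AP20187, and -1.41 and 0.15 with vehicle. Over all features it was -0.05 after AP20187 and 0.11 with vehicle. WAT AP20187 array 1, with the highest epididymis markers, enters the values after AP20187. Without it the differences of Hoxb6, Hoxb7, Hoxb8, Hoxb9, Hoxd8 and Hoxd9 were smaller, at -2.54, -1.78, -0.20, -2.56, -1.32 and -1.84. Those of Hoxa9, Hoxc6, Hoxc8 and Hoxc9 were larger, at -1.20, -1.72, -4.66 and -8.50. The Hoxa cluster stood apart from this description: its members with numbers 6 to 9 (Hoxa6, Hoxa7 and Hoxa9) had differences of -0.85 to 0.27 after AP20187 and -0.65 to 0.23 with vehicle, and none passed.

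Of the 28 members, 10 had all 4 BAT arrays below all 8 WAT arrays, a pattern seen in 11.2% of all features: Hoxb3, Hoxb5, Hoxb6, Hoxb7, Hoxb9, Hoxc6, Hoxc8, Hoxc9, Hoxd8 and Hoxd9. Hoxa4 and Hoxa5 had all BAT arrays above all WAT arrays, as did 14% of all features. Fewer cells of a type that expresses a gene and less RNA of it per cell cannot be told apart in bulk tissue. The mesothelium markers, which were near background in BAT and clear in WAT, separated the depots in the same way, and their part in these differences was not tested.

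**Figure D4:**
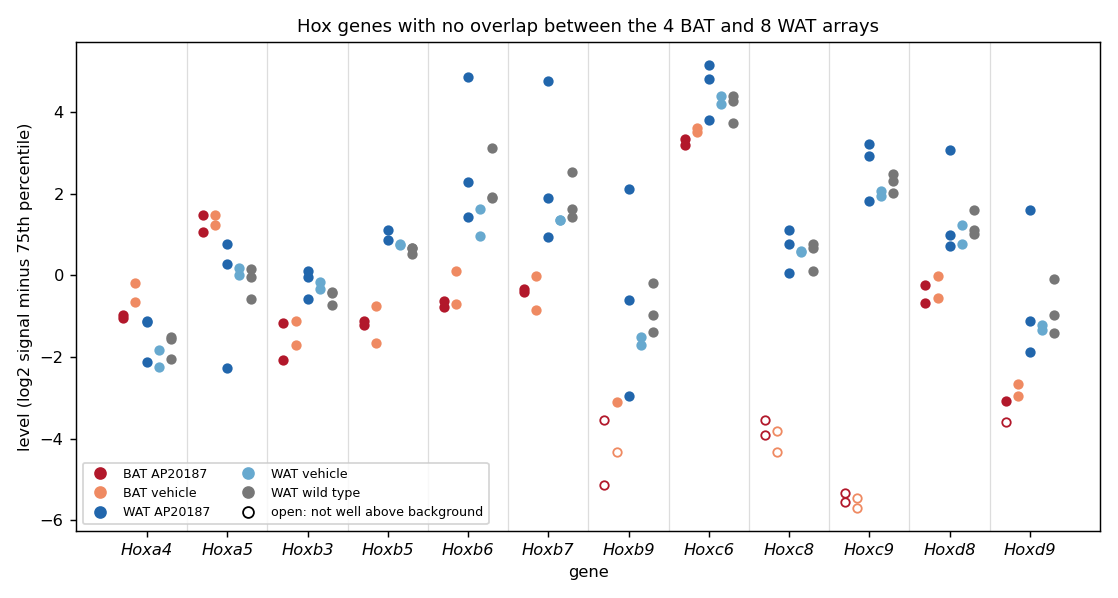
Levels (y axis, log2, relative to the array's 75th percentile) of the 12 tested Hox genes whose BAT and WAT arrays do not overlap (x axis), 1 point per array, with BAT groups in red shades left of WAT groups in blue and grey. Open points are not well above background: all 4 BAT arrays for Hoxc8 and Hoxc9, 3 of 4 for Hoxb9 and 1 for Hoxd9.

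In the Hoxb cluster, Hoxb3, Hoxb5, Hoxb6, Hoxb7 and Hoxb9 separated the depots. Hoxb5, which acts in the embryonic neck and chest, was at -1.11 and -1.22 in BAT with AP20187 and -1.65 and -0.75 with vehicle. In WAT it averaged 0.98 with AP20187 (n = 2), where array 1 had no usable spot, 0.74 and 0.77 with vehicle, and 0.66, 0.67 and 0.52 in wild type. Hoxb5 was detected in both depots and was 4.44-fold lower in BAT after AP20187 (SE 0.28 log2, adjusted p = 0.00146) and 3.88-fold lower with vehicle (SE 0.28, adjusted p = 0.00263). Hoxb3, a hindbrain and neck gene, was at -1.18 and -2.08 in BAT with AP20187 and -1.71 and -1.11 with vehicle, against -0.58, 0.12 and -0.03 in WAT with AP20187, -0.16 and -0.32 with vehicle and -0.41, -0.42 and -0.72 in wild type. That is 2.76-fold lower in BAT after AP20187 (adjusted p = 0.0102) and 2.24-fold lower with vehicle (adjusted p = 0.0429). Its second probe differed in the same direction, by -1.15 and -0.63, but was at -3.04 to -2.17 in BAT and -2.53 to 0.15 in WAT, so by that probe the depots overlapped. With the mean of both probes the vehicle difference was -0.90 (adjusted p = 0.066) and did not pass.

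Hoxb6, Hoxb7 and Hoxb9, genes of the trunk, were each below all WAT arrays on every BAT array. Hoxb6 was at -0.62 and -0.76 in BAT with AP20187 and -0.70 and 0.10 with vehicle, against 4.85, 2.29 and 1.42 in WAT with AP20187, 1.62 and 0.96 with vehicle and 1.93, 1.90 and 3.11 in wild type. Its value on WAT AP20187 array 1 was far above the others, and that array enters the comparison after AP20187 (-3.54, SE 0.87, adjusted p = 0.0164). Hoxb7 was at -0.86 to -0.01 in BAT and 0.93 to 4.77 in WAT, and Hoxb9 at -5.12 to -3.09 in BAT and -2.95 to 2.12 in WAT. The adjusted p after AP20187 was 0.0448 for Hoxb7 and 0.0425 for Hoxb9, and with vehicle all 3 genes missed the threshold (0.27, 0.24 and 0.30). Hoxb9 entered the test through WAT groups only, so the filter favoured a lower level in BAT. With no filter on dim probes its call was lost. Hoxb2 and Hoxb4, by contrast, overlapped between the depots: Hoxb2 averaged 0.74 and 0.55 in BAT with AP20187 and vehicle, inside its WAT range of 0.44 to 2.50, and Hoxb4 at 1.82 to 2.57 in BAT and 1.60 to 2.85 in WAT. Hoxb8 was at -4.94 to -0.95 in BAT and -3.27 to 2.04 in WAT.

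In the Hoxd cluster Hoxd8 and Hoxd9 separated the depots. Hoxd8 was at -0.24 and -0.67 in BAT with AP20187 and -0.56 and -0.02 with vehicle, against 0.72 to 3.07 on the 3 WAT arrays with AP20187, 1.24 and 0.78 with vehicle and 1.02, 1.11 and 1.59 in wild type. Hoxd9 was at -3.07 and -3.59 in BAT with AP20187 and -2.95 and -2.65 with vehicle, against 1.60, -1.11 and -1.88 in WAT with AP20187, -1.21 and -1.33 with vehicle and -0.98, -1.42 and -0.08 in wild type. Both passed after AP20187 (4.15-fold lower in BAT, adjusted p = 0.0344, and 7.29-fold lower, adjusted p = 0.0359) and neither with vehicle (-1.30, adjusted p = 0.20, and -1.53, adjusted p = 0.28). Hoxd4 was at -2.46 to -1.11 in BAT and -1.80 to 1.98 in WAT. Hoxd3 was not detected in BAT and was detected on 6 of the 8 WAT arrays, at -0.27, -4.70 and -6.29 with AP20187, -3.27 and -3.94 with vehicle and -3.14, -2.73 and -1.15 in wild type. Hoxd3os1, named as the opposite strand of Hoxd3, was at -3.42 to -2.72 in BAT and -5.74 to 0.19 in WAT.

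The low-numbered Hoxa genes ran the other way. Hoxa4 was at -1.04 and -0.97 in BAT with AP20187 and -0.64 and -0.18 with vehicle, against -2.11, -1.15 and -1.12 in WAT with AP20187, -1.83 and -2.24 with vehicle and -1.50, -1.57 and -2.05 in wild type. It was 3.07-fold higher in BAT with vehicle (SE 0.37 log2, adjusted p = 0.0136), and 0.46 log2 (SE 0.33, adjusted p = 0.32) after AP20187 did not pass. Without WAT vehicle array 2 or without BAT vehicle array 3 the vehicle call was lost (adjusted p = 0.085 and 0.067). Hoxa5, a gene of the neck and chest that also acts in lung and mammary gland, was at 1.06 and 1.49 in BAT with AP20187 and 1.48 and 1.23 with vehicle, against -2.26, 0.77 and 0.29 in WAT with AP20187, 0.17 and 0.02 with vehicle and -0.04, 0.15 and -0.59 in wild type. All BAT arrays were above all WAT arrays, but neither difference passed (1.68, SE 0.75, adjusted p = 0.12 after AP20187, and 1.25, SE 0.82, adjusted p = 0.31 with vehicle). Hoxa3 was at 1.31 to 1.67 in BAT and, leaving aside WAT AP20187 array 1, at 0.11 to 1.35 in WAT. With that array the Hoxa3 difference after AP20187 was 2.78 (adjusted p = 0.28), and without it 0.36 (adjusted p = 0.37). On that array the Hoxa3 spot was at -6.29 and the spot beside it at -6.29 too, although that neighbour was at 3.48 to 5.83 elsewhere.

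The ranges of the other low and middle Hoxa genes overlapped between BAT and WAT. Hoxa7 was at 3.06 to 3.42 in BAT and 2.80 to 3.72 in WAT, and Hoxa9 at -2.58 to -1.41 in BAT and -2.42 to -1.15 in WAT. Hoxa2 was at -2.82 to -1.61 in BAT and -5.71 to -1.79 in WAT, where the lowest value is again WAT AP20187 array 1. Hoxa6 was detected on 2 BAT arrays and 7 WAT arrays. These overlaps do not show that the levels were equal: the 95% interval of the Hoxa9 difference after AP20187 reached -1.78.

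WAT AP20187 array 1 decided how many members passed with vehicle, although it is not in that comparison, because the 5 groups share 1 estimate of the spread. Without it 13 members passed, all 6 from before among them, where 32.8% of all features passed: Hoxa3, Hoxa4 and Hoxa5 were higher in BAT, and Hoxa13, Hoxb3, Hoxb5, Hoxb6, Hoxb7, Hoxc8, Hoxc9, Hoxd4, Hoxd8 and Hoxd9 were lower. For Hoxa5 the same difference of 1.25 then had an SE of 0.29 (adjusted p = 0.0129), and for Hoxb7 the difference of -1.79 had an SE of 0.46 (adjusted p = 0.0194). The same array raised several differences after AP20187: without it they were -2.54 for Hoxb6, -1.78 for Hoxb7, -2.56 for Hoxb9, -1.32 for Hoxd8 and -1.84 for Hoxd9, and all 5 still passed, among 11 calls, where 34.8% of all features passed. The call gained there was the lower Hoxa9. Of the 23 alternative fits, however, 17 lost the call after AP20187 for Hoxb7, 15 for Hoxb9, 10 for Hoxd8, 9 for Hoxd9, 6 for Hoxc6 and 3 for Hoxb6. Without WAT AP20187 arrays 1 and 2, 15 members passed with vehicle, where 34.2% of all features passed. Without WAT vehicle array 2, 3 did, where 13.2% of all features passed. After AP20187 the count of 10 was 6 without WAT vehicle array 1, without WAT vehicle array 2, without wild-type array 1 or without wild-type array 2, 4 without BAT AP20187 array 1 and 3 without BAT AP20187 array 2, where 18.3 to 26.5% of all features passed. Hoxb5, Hoxc8 and Hoxc9 stayed lower in BAT in both depot comparisons whichever array was left out. Hoxc8 and Hoxc9 entered the test through WAT groups only.

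The second question is whether AP20187 changed the Hox pattern within a depot. In BAT, 0 of 28 members passed limma's test between AP20187 and vehicle, where 0.00818% of all features passed. An unadjusted p under 0.05 was found for 0 members and for 1803 of 24459 features. The smallest p in BAT was that of Hoxa4 (-0.59, SE 0.37, adjusted p = 0.82). Leaving out BAT vehicle array 2 gave 1 call, the lower Hoxc13. In WAT, 1 of 28 members passed, as lower, where 2.24% of all features passed and 0.491% were lower: Hoxa13, a gene of the hindmost axis, limb ends and genital tract, was at -6.09, -5.73 and -6.19 with AP20187 and at -3.83 and -2.63 with vehicle. It was at background after AP20187 and at least 1.77-fold lower there (log2 difference -2.77, SE 0.56, adjusted p = 0.0478). It entered the test only because both WAT vehicle arrays detected it, so that the filter built in a lower level in the other groups.

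The Hoxa13 call rests on dim signal and was lost in 19 of 23 alternative fits, among them each that left out 1 array, except WAT AP20187 array 1 or WAT vehicle array 1. Its second probe was well above background on WAT vehicle array 2 (-2.99) but at -7.41 on vehicle array 1, and also on wild-type array 3 (-2.63). In wild-type WAT the probe used was at -6.71, -6.83 and -4.93. Without WAT vehicle array 2 the difference was -2.17 (adjusted p = 0.14), and with slide as a block it was -3.37 (adjusted p = 0.32). The same vehicle arrays give the lower Hoxa13 in BAT than in WAT with vehicle, at least 1.26-fold (adjusted p = 0.0224), a direction that the filter built in as well. That call was lost in 4 of 21 alternative fits: without WAT vehicle array 2 (-1.80, adjusted p = 0.14), without BAT vehicle array 2 (-2.52, adjusted p = 0.079), without BAT vehicle array 3 (-2.29, adjusted p = 0.080), and with normexp and quantile scaling (-0.20, adjusted p = 0.20). The second probe differed by -0.64 there.

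Hoxb2 and Hoxb4 had unadjusted p-values under 0.05 by limma in WAT after AP20187 and did not pass over all features. With Hoxa13 that made 3 of 28 members, where 5450 of 24459 features had such a p-value, a larger share. Hoxb4 was at 2.85 and 2.51 with AP20187, with no usable spot on array 1, and at 1.96 and 2.13 with vehicle (0.64, SE 0.25, adjusted p = 0.19). Hoxb2 was at 2.50, 1.27 and 1.18 with AP20187 and 0.66 and 0.76 with vehicle (0.94, SE 0.40, adjusted p = 0.21). For both genes the groups did not overlap, a pattern that was not counted over all features. Hoxc9 was 0.64 (SE 0.37, adjusted p = 0.33) on all 3 AP20187 arrays. Without array 1 it passed, at 1.06 (SE 0.20, adjusted p = 0.0331). Within slide 2, which held the 3 AP20187 arrays and vehicle array 2, the Hoxc9 mean was 2.65 with AP20187 and 2.07 on that vehicle array.

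The difference of the AP20187 response, BAT minus WAT, passed for 0 of 28 members, where 0% of all features passed. An unadjusted p under 0.05 was found for 4034 of 24459 features and for 3 of the 28 members, a smaller share. These were Hoxa13 (2.90, adjusted p = 0.15), Hoxb4 (-0.90, adjusted p = 0.27) and Hoxa4 (-1.16, adjusted p = 0.29). Between Fv2E-PERK WAT with vehicle and untreated wild-type WAT, 0 of 28 members passed by limma, where 0.0245% of all features did. These groups differ in both transgene and vehicle injection, which cannot be told apart. All 3 wild-type arrays also lay on slide 1, and the 2 vehicle arrays on slides 1 and 2. An unadjusted p under 0.05 was found for 2 members and for 1229 of 24459 features. Hoxa13 was 2.93 (adjusted p = 0.30) and Hoxa10 was -3.02 (adjusted p = 0.83), with Hoxa10 at -5.06 and -7.02 with vehicle and -4.07, -4.32 and -0.66 in wild type. Without WAT vehicle array 1, 3 dim members passed in this comparison, Hoxa13, Hoxc10 and Hoxc11, each at its highest on vehicle array 2, the 1 array left in that group.

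WAT AP20187 array 1 and WAT wild-type array 3 carried more of some Hox genes than the other WAT arrays did. WAT AP20187 array 1, with the highest epididymis markers, was the highest WAT array for 9 of the 28 tested members: Hoxb2, Hoxb6, Hoxb7, Hoxb8, Hoxb9, Hoxd3, Hoxd4, Hoxd8 and Hoxd9. Hoxb7 was at 4.77 there, against 0.93 to 2.54 on the other 7 WAT arrays, and Hoxd9 at 1.60, against -1.88 to -0.08. The same array was the lowest of the WAT arrays for Hoxa2, Hoxa3, Hoxa5, Hoxa7, Hoxc8 and Hoxc9. Over markers with a usable spot on every array, its 4 adipocyte, 3 endothelial and 2 macrophage markers averaged 7.66, 0.55 and 0.18, each the lowest of the 8 WAT arrays. Whether lone dark values, such as Hoxa2 at -5.71 there and Hoxa6 at -5.74 on WAT AP20187 array 2, are failed spots was not tested. WAT AP20187 array 2 was the highest WAT array for 12 other members, among them Hoxc4, Hoxc5, Hoxc6, Hoxc8 and Hoxc9. Its 11 epididymis markers were all well above background too, at a lower mean than on array 1.

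WAT wild-type array 3 had the highest mean of the seminal vesicle and prostate transcripts among the WAT arrays, with Svs5 at 10.4 and Pbsn at 4.53. Hoxb13, a prostate gene, was at -0.36 there, against -7.13 to -5.78 on the other WAT arrays, where it was never well above background. Hoxd13, which acts in the genital tract, was at -1.91, against -7.32 to -6.07. Hoxa11 was at 0.51, against -6.83 to -4.35, and its antisense partner Hoxa11os at 2.52, against -3.56 to -2.27. Hoxa10 and Hoxd10 were also highest on this array, at -0.66 and -2.46. Of the 10 seminal vesicle and prostate transcripts, 8 were well above background on it, 7 on WAT vehicle array 1 and 6 on WAT vehicle array 2. On WAT vehicle array 1, where they averaged -1.41, Hoxb13 was at -7.13 and Hoxa11 at -6.47, neither well above background. WAT vehicle array 2, with the highest liver transcripts (2.90), was the only array with Hoxc11 (-3.16) and the highest for Hoxc10 (-1.98) and Hoxa13. On it 20.0% of the 1140 olfactory receptor probes were well above background, against 5.18 to 13.3% on the other 11 arrays. The part of these transcripts in the Hox levels was not tested.

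**Figure D5:**
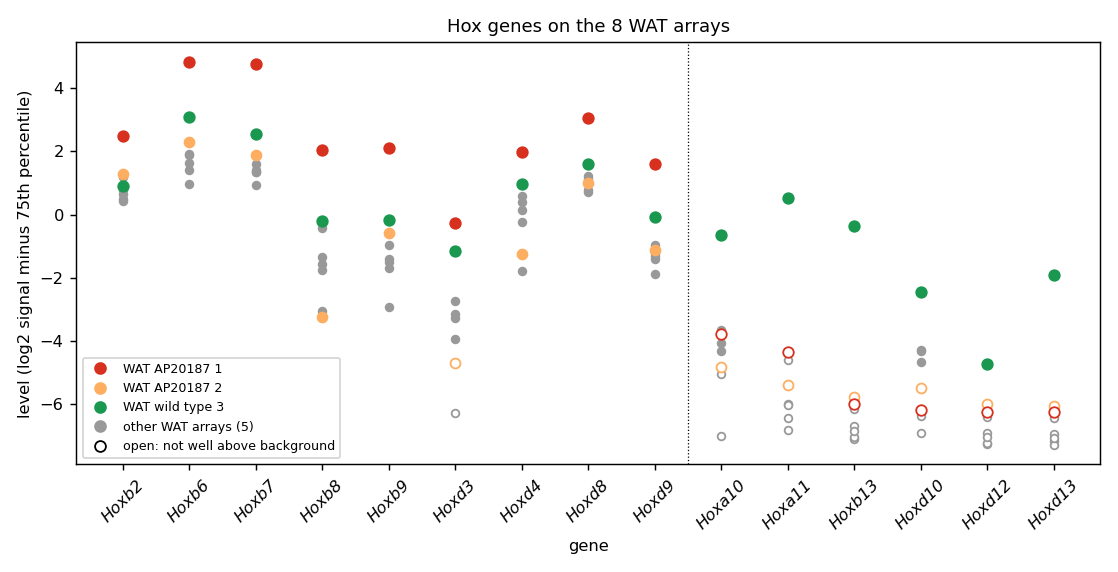
Levels (y axis, log2, relative to the array's 75th percentile) of 15 Hox genes (x axis) on the 8 WAT arrays, 1 point per array, open where not well above background. Left of the dotted line are the 9 tested members highest on WAT AP20187 array 1 (red), and right of it 6 genes highest on WAT wild-type array 3 (green).

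Genes that work with Hox proteins, regulate the clusters or mark depots were counted in 6 lists. Of all features, 29.9% passed between the depots after AP20187, 13.1% as higher in BAT and 16.9% as lower. With vehicle 23.4% passed, 14.3% as higher and 9.17% as lower. In the TALE, Polycomb, trithorax and cluster neighbour lists the share called, both directions together, lay below these in each comparison. All 9 TALE cofactors were tested, and 1 was lower in BAT in each depot comparison: Meis1 was 2.42-fold lower after AP20187 (adjusted p = 0.00572) and 2.21-fold lower with vehicle (adjusted p = 0.0162). Its level was 1.18 ± 0.04 in BAT (SD, n = 2) and 2.46 ± 0.46 in WAT (n = 3) after AP20187. The median difference of these 9 genes was 0.02 after AP20187 and -0.08 with vehicle, against -0.05 and 0.11 over all features.

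Of 20 Polycomb genes 19 were tested; 4 were higher and 1 lower in BAT after AP20187, and 1 was higher and 1 lower with vehicle. Cbx8 was higher and Cbx6 lower in both, by 1.90-fold and 2.90-fold after AP20187 and by 2.02-fold and 2.48-fold with vehicle. Both encode chromobox proteins of Polycomb complex 1. Phf1 and Ezh1 passed as higher in BAT after AP20187 and not with vehicle, by 3.24-fold and 1.71-fold, and the difference between the 2 comparisons did not pass for any gene of this list. The trithorax and demethylase list had 12 tested genes, of which Wdr5, a core subunit of the methylating complexes, was higher in BAT after AP20187 (1.63-fold, adjusted p = 0.00827) and 0 passed with vehicle.

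Among 29 listed genes within or beside the clusters, 12 were on the array and 10 were tested. Skap2, a neighbour of the Hoxa cluster, was 2.03-fold higher in BAT with vehicle (adjusted p = 0.0101). After AP20187 Calcoco1 was higher, by 1.45-fold (adjusted p = 0.0438), and Skap1 was at least 13.7-fold lower (adjusted p = 0.0346). The level of Skap1 was -4.23 ± 0.80 in BAT (SD, n = 2) and 0.28 ± 2.75 in WAT (n = 3), so its spread in WAT was wide. Of these 2 groups only WAT let it through the filter, which favoured a lower level in BAT.

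Of 36 other transcription factors that pattern depots and limbs, 25 were tested, and 7 were higher and 4 lower in BAT in each depot comparison. Lhx8, a LIM-homeobox gene used as a marker of brown fat, was well above background on all BAT arrays and on none with WAT AP20187 or vehicle, at least 14.2-fold higher in BAT after AP20187 (adjusted p = 6.97e-06) and at least 36.9-fold with vehicle (adjusted p = 4.30e-06). Tbx15, a T-box gene of mesoderm, was at least 11.3-fold higher after AP20187 and at least 14.9-fold with vehicle. Dlx3 was 5.44-fold and 14.5-fold higher. Wt1, a marker of mesothelium and visceral white fat, was at least 52.5-fold lower in BAT after AP20187 and at least 62.1-fold lower with vehicle, and it is also 1 of the mesothelium markers above. Tcf21, a gene of visceral mesenchyme, was at least 7.13-fold and at least 6.90-fold lower, and Osr1 at least 14.2-fold lower after AP20187. Of the groups in these comparisons, only BAT groups let Lhx8 and Tbx15 through the filter. Only WAT groups let Wt1, Tcf21 and Osr1 through. The filter therefore favoured the direction given for each of these genes.

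Of 18 retinoic acid genes 15 were tested. After AP20187, 2 were higher and 5 lower in BAT, and 3 were higher and 5 lower with vehicle. The enzymes that make retinoic acid were lower in BAT: Aldh1a1 by 26.0-fold after AP20187 and 15.8-fold with vehicle, Aldh1a3 by 14.3-fold and 8.08-fold, and Aldh1a2, also a mesothelial gene, by at least 36.5-fold after AP20187 and 26.5-fold with vehicle, where 1 BAT array detected it. Aldh1a2 entered the test through WAT groups only, so the filter favoured a lower level in BAT. The receptor Rarb, itself a retinoic acid target, was higher in BAT, by 5.31-fold and 7.54-fold. Rxrb was 2.15-fold and 2.28-fold higher. The median difference of the 15 genes was -0.48 after AP20187 and -0.73 with vehicle. Within the depots none of these 6 lists had a gene past the threshold after AP20187 except Lhx8 in WAT, which was not well above background in either group, and none had one between WAT with vehicle and wild type. Of all features, 2.24% passed in WAT after AP20187, 0.00818% in BAT, and 0.0245% between WAT with vehicle and wild type.

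RefSeq promoters, from 250 bases before to 50 after the start, were at hand for 22 of the 39 genes, as 24 sequences. Their CpG count had a median of 14.5 (range 4 to 45), against 7 over all 32851 promoters in the table. Motifs were searched on both strands. TGATNNAT, a form of the site that Hox and Pbx proteins bind together, was in 4 of the 24 and in 8.85% of all. CCAAT, the site of the general factor NF-Y, was in 15 of the 24 and in 37.4% of all, and TATAAA in 4 of the 24 and 13.6% of all. The promoters of Hoxd8, lower on all BAT arrays, and of Hoxa5, higher on all BAT arrays, are shown as 2 examples, with CCAAT or its reverse complement in capitals (GRCm38.p6). The match is a description and not a binding site.
Hoxd8 (chr2:74704365-74704664, plus strand): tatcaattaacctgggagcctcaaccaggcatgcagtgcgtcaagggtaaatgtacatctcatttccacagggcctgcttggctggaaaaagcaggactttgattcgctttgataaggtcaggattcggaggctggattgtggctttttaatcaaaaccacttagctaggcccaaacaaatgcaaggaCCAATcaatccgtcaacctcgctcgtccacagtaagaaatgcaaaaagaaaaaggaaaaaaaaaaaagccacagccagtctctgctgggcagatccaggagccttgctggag
Hoxa5 (chr6:52204538-52204837, minus strand): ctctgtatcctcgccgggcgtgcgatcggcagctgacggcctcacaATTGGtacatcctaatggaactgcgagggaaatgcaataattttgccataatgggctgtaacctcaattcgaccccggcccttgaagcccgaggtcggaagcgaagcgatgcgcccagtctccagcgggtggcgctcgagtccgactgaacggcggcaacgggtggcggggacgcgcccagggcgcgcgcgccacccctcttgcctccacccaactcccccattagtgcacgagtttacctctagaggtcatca
The Hoxd8 sequence holds 6 CpG at 46.7% GC and the Hoxa5 sequence 29 CpG at 61.7% GC. Hoxd9, also lower on all BAT arrays, has a promoter with 20 CpG at 68.3% GC and no CCAAT.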

How the data were processed

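RNA of 13 fat samples was read on Agilent arrays in 1 colour. The deposited signal is an intensity; per the file headers, Agilent Feature Extraction 10.7.1.1 removed background and spatial trend array by array and did not scale arrays to each other, and the design uses build mm9. The authors' value table is an intensity too, with low cells blank, by a rule not given in the sources used here. For each array 98.97 to 99.18% of its values were within 0.1% of the processed signal, so it showed neither scaling nor centring, and column medians ran from 32.8 to 97.5.

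Outlier spots (3585 over the 13 arrays) were dropped and spots of a probe averaged. Levels are log2 minus the 75th percentile of the array. Of 55681 probes, 26056 matched 1 RefSeq gene and 29625 none. Probes detected throughout 1 or more groups were kept (32616), with 1 probe per gene, which gave 24459 features. The 12 arrays of the 5 groups were fitted with limma 3.58.1 in R 4.3.3 and Benjamini-Hochberg adjustment, threshold 0.05, and the fit was tested on simulated data. Context genes were named by smallest p, up to 6 a list. The members, gene lists and tests were chosen with earlier results of these data known. "At least" folds are bounds of a group mean against the lowest signal well above background. Samples were not paired by replicate number, and whether same-numbered arrays share a mouse is not known. The few arrays limit the precision. Some members and listed genes enter the counts and are not reported here one by one.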

Additional observations from a re-analysis of the deposited data

Results flagged for a closer look

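On the array whose labels name both tissues, which entered no comparison, 7 of the Hox genes reported here lay above the highest vehicle array of either depot and were well above background. They were Hoxa7 at 3.67, Hoxb7 at 1.46, Hoxb9 at -1.23, Hoxc4 at 2.59, Hoxc6 at 4.68, Hoxc8 at 0.72 and Hoxc9 at 2.30. The highest vehicle levels were 3.58, 1.36, -1.50, 2.45, 4.39, 0.60 and 2.07 for the same genes in this order, so the excess was small. No group holds more than 3 arrays, so no array was set against its group for standing apart.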

How the results depend on the processing

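Hoxb5, Hoxc8 and Hoxc9 kept their direction in both depot comparisons under every alternative that gave a value. They passed in each that left more than 1 array in every group. Hoxc8 and Hoxc9 entered the test through WAT groups only. In the comparison with vehicle, the count of 6 Hox genes was 4 to 9 under the other scalings, filters, probe rules and blocks and 15 without WAT AP20187 arrays 1 and 2. After AP20187, the count of 10 was 6 with normexp and quantile scaling, 3 with only the compared arrays, 6 without WAT AP20187 arrays 1 and 2, and 7 to 15 under the others. The single call in WAT after AP20187 became 0 with the percentile taken over commonly detected probes, quantile scaling with or without normexp, the authors' value table, the stricter filter, the mean of probes, only the compared arrays, slide as a fixed block, the replicate block, or without WAT AP20187 arrays 1 and 2. Leaving out each array in turn gave 3 to 13 calls for BAT against WAT with vehicle, 3 to 11 after AP20187, 0 to 2 in WAT and 0 to 1 in BAT for AP20187 against vehicle, 0 to 3 for WAT vehicle against wild type, and 0 to 1 for the difference of the responses; a group left with 1 array is assumed to vary like the others. The cause was not tested, beyond fewer arrays.

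Of 21 single-gene results followed through the alternatives, Hoxa4 after AP20187 changed sign, to -0.40 (adjusted p = 0.42) with the authors' value table. Without WAT AP20187 array 1, the uncalled differences of 5 other members after AP20187 also changed sign: Hoxa2 (-0.08), Hoxa6 (0.31), Hoxa7 (-0.04), Hoxc5 (-0.28) and Hoxd3 (0.02). With the replicate block, 7 members passed after AP20187 and 4 with vehicle (Hoxa4 and Hoxb3 did not); same-numbered arrays correlated at -0.22 to 0.11, so the numbers do not pair samples. Slide as a random block had an estimated correlation of -0.25, below 0. The median of all features for BAT minus WAT with vehicle was 0.11, against -0.13 with the percentile over detected probes and -0.64 with the value table; features higher and lower numbered 3491 and 2243, 2682 and 3395, and 491 and 3184 under these scalings, and 3007 and 2744 with quantile scaling. After AP20187 they numbered 3197 and 4122, and 783 and 8079 with the value table; in WAT for AP20187 against vehicle, 428 and 120, and 7 and 220 with detected probes. Signal over background limits statements on numbers 10 to 13.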

Other observations

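The array with contradictory labels gave values for the Hox genes that can be set beside both depots without assigning it to one. Its levels lay within the WAT range for 28 of the 28 tested members and within the BAT range for 8. For the 12 members whose BAT and WAT arrays do not overlap, 12 of its levels lay within the WAT range and 0 within the BAT range. Hoxc9 was at 2.30, Hoxc8 at 0.72, Hoxb5 at 0.66, Hoxa4 at -1.91 and Hoxa5 at 0.06. It had 26 Hox genes well above background, 1 of them with a number from 10 to 13. Its brown fat markers averaged -0.70 and its mesothelium markers 2.32.

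Hoxc13, a gene of hair and nail, was at -1.03 on BAT vehicle array 3 and between -7.10 and -5.46 on the other 11 arrays, where it was never well above background. That array also had the highest skeletal muscle markers of the 12, at 5.04.

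Hoxd10 was detected on BAT AP20187 array 2 (-3.01) and on no other BAT array. Hoxd11 was detected on WAT AP20187 array 3 (-2.65) and wild-type array 3 (-3.49) only. Hoxb8 was at -4.94 on BAT AP20187 array 1 and -1.80 on array 2.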
